A study of Mus musculus with 8 samples.

Results

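The genes of the mouse major histocompatibility complex (MHC) and of antigen processing were followed in the esophagus of mice with and without overexpression of IL-33. Members were the protein-coding genes whose GRCm38 symbol starts with H2-, together with Cd74, Ciita, Nlrc5, B2m, Tap1, Tap2, Tapbp, Psmb8, Psmb9 and Psmb10. They came to 44 of 49315 gene rows, of which 26 were class I, 11 class II and 6 processing genes, B2m and Nlrc5 being placed with class I and Cd74 and Ciita with class II. The remaining member, H2-Ke6, has an H2- symbol but encodes a steroid and fatty acid dehydrogenase. RNA of whole esophagus was sequenced after poly(A) selection in male C57BL/6J mice aged 8 weeks, 4 of them transgenic EoE33 mice that overexpress IL-33 in the esophagus and 4 wild type littermates. IL-33 is an alarmin, a cytokine that epithelial cells release on damage. The promoter that drives the transgene is not given in the sources used here. The comparison asks how these transcripts differ when the esophagus overexpresses IL-33.

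MHC class I molecules stand on nearly all cells and show peptides from inside the cell to CD8+ T cells. The proteasome cuts proteins, the Tap1 and Tap2 transporter carries the peptides into the endoplasmic reticulum, and tapasin, encoded by Tapbp, helps load them on a heavy chain paired with B2m. MHC class II molecules stand mainly on dendritic cells, macrophages and B cells, and show peptides from taken-up material to CD4+ T cells. The invariant chain Cd74 fills their groove until H2-DM exchanges its remnant for a peptide, a step that H2-O inhibits. Ciita and Nlrc5 are the coactivators of class II and class I transcription. They do not bind DNA themselves but sit on factors assembled at an upstream promoter unit, whose Y box is a CCAAT motif read on the opposite strand. Mouse esophagus is lined by a keratinised squamous epithelium, and its outer muscle is skeletal. The tissue was checked by the summed level of Krt5, Krt14, Krt4, Krt13 and Trp63, which was 51600 to 90800 CPM in wild type and 31700 to 48200 CPM in EoE33 mice. These markers did not move together. Mean Krt4 fell from 35830 to 7550 CPM and Krt13 from 33720 to 17310 CPM in EoE33 mice. Krt5 rose from 1886 to 7400 CPM, Krt14 from 513 to 8527 CPM and Trp63 from 126 to 250 CPM. CPM means counts per 1e6 counts with TMM-scaled library sizes.

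The promoters of class II genes are shown first because most of them share this unit. Promoters of RefSeq (GRCm38.p6), from 250 bases before to 50 bases after the gene start, were searched for 8 of 11 class II members. The other class II members were not searched and are outside the counts below. The windows below run from 140 to 21 bases before the start, 5′ to 3′ on the gene's strand, and capitals mark CCAAT, AACNNATG (a pattern of the X box core) and TGACGTCA (the full cAMP response element) on either strand.
H2-Aa, chr17:34287844-34287963, minus strand: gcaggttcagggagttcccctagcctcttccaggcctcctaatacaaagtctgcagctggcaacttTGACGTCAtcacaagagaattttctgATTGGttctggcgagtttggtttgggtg
H2-Eb1, chr17:34305727-34305846, plus strand: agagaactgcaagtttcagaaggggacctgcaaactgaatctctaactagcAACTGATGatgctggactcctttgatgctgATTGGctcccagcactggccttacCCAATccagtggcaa
H2-DMb2, chr17:34145109-34145228, plus strand: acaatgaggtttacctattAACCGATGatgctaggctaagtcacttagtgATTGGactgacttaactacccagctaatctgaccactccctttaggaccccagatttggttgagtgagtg
H2-Ob, chr17:34238765-34238884, plus strand: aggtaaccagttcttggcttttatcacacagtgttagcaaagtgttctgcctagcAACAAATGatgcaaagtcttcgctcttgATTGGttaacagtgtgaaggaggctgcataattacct
H2-Eb2, chr17:34325535-34325654, plus strand: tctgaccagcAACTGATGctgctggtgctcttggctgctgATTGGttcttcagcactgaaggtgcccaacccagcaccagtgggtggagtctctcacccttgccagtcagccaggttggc
Each of these windows holds CCAAT on the opposite strand, where it reads ATTGG, and H2-Eb1 also holds it on its own strand, nearer to the start. Over the 8 class II promoters, 7 held CCAAT on the opposite strand between 40 and 100 bases before the start, against 7.71% of 32851 promoters searched, in a range of positions chosen after the positions were seen. AACNNATG was found in 5 of the 8, those of H2-DMb1, H2-DMb2, H2-Eb1, H2-Eb2 and H2-Ob, against 8.86% of all promoters. From the start of AACNNATG to the start of ATTGG there were 31 bases in H2-DMb1 and H2-DMb2, 30 in H2-Eb1 and H2-Eb2 and 28 in H2-Ob. H2-Aa held TGACGTCA, found in 1.79% of all promoters, 26 bases before its ATTGG. H2-Eb1 and H2-Ob both hold AACNNATG and ATTGG, and only the RNA of H2-Eb1 was called between the groups.

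Class I promoters were read for a further motif. Interferon-responsive elements were searched as GAANNGAAA, and as GAAA and GAAA with 2 bases of any kind between them, on both strands, and the windows below run from 190 to 41 bases before the start, with these motifs and CCAAT in capitals.
H2-K1, chr17:34000388-34000537, minus strand: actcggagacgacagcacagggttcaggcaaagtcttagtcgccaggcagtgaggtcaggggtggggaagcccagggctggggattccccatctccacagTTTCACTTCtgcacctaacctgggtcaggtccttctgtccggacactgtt
B2m, chr2:122147497-122147646, plus strand: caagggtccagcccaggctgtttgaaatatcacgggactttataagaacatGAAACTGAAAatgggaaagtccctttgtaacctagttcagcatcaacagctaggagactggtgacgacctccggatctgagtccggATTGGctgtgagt
H2-Q10, chr17:35469899-35470048, plus strand: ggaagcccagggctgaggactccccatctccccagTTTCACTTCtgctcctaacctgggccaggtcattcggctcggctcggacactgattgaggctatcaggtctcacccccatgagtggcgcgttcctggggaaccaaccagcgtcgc
H2-M2, chr17:37483595-37483744, minus strand: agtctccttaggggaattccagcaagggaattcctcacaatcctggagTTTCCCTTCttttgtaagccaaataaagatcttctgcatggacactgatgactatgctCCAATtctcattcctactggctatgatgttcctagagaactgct
H2-K1 and B2m are shown as the chains of the classical molecule, and H2-Q10 and H2-M2 as members whose libraries varied widely. One or both patterns were in 11 of the 23 class I promoters found, in 0 of 8 class II and in 0 of 5 processing gene promoters, against 3403 of all 32851 promoters. CCAAT on either strand was in 20 of 23 class I, 7 of 8 class II and 3 of 5 processing gene promoters, and in 37.4% of all promoters. In the nearer range on the opposite strand it was in 9 of 23 class I promoters. A match is a run of letters, and binding was not measured.

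Library totals were 17726292 to 24070822 counts, and 16760 genes passed the filter on low counts. Il33 itself rose from 129 ± 27.1 CPM to 371 ± 16.1 CPM (SD, n = 4 per group), in the direction of the labels. Other tissue differed between libraries: summed airway markers, mostly Scgb1a1 and Scgb3a2, were 5.7 to 431 CPM in wild type and 0.334 to 1.4 CPM in EoE33 mice, and liver markers, mostly Alb and Apoa1, were 4.15 to 132 CPM and 0.41 to 3.45 CPM. Summed skeletal muscle markers, mostly Acta1 and Ckm, were 17800 to 20000 CPM in wild type and 4950 to 6620 CPM in EoE33 mice. In whole tissue, more cells of a type and more RNA per cell cannot be told apart.

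Of the 44 members, 32 passed the filter, and 20 were higher and 1 was lower in EoE33 mice at an adjusted p under 0.05 in edgeR's quasi-likelihood test. Across all tested genes 31.3% were called higher and 32.1% lower (63.4% in either direction), so a call alone sets no member apart in these data. The groups were fully apart, with EoE33 above, for 17 members and, with EoE33 below, for 2, against 29.6% and 29.9% of all tested genes. The median log2 fold change was 0.82 over the 32 members and -0.01 over all tested genes. The 3 groups differed in how uniform they were. All 6 processing genes were higher, with a median log2 fold change of 1.05. Of 11 class II members, 7 were higher and 0 lower, with a median of 0.98. In these 2 groups 0 were also lower at an unadjusted p under 0.05, in DESeq2 and in limma-voom. Of 26 class I members, 14 were tested, 7 were higher, 1 was lower, and the median was 0.52 (also with H2-M10.5, which had 0 counts in EoE33 mice, at its bound). The lower member, H2-M10.5, and H2-M2, among the higher, passed the filter only through the group in which they are high. A large difference is thus built into their being tested, and both are also among the members fully apart. Without EoE33 replicate 1, 4 class I members were called higher.

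**Figure D1:**
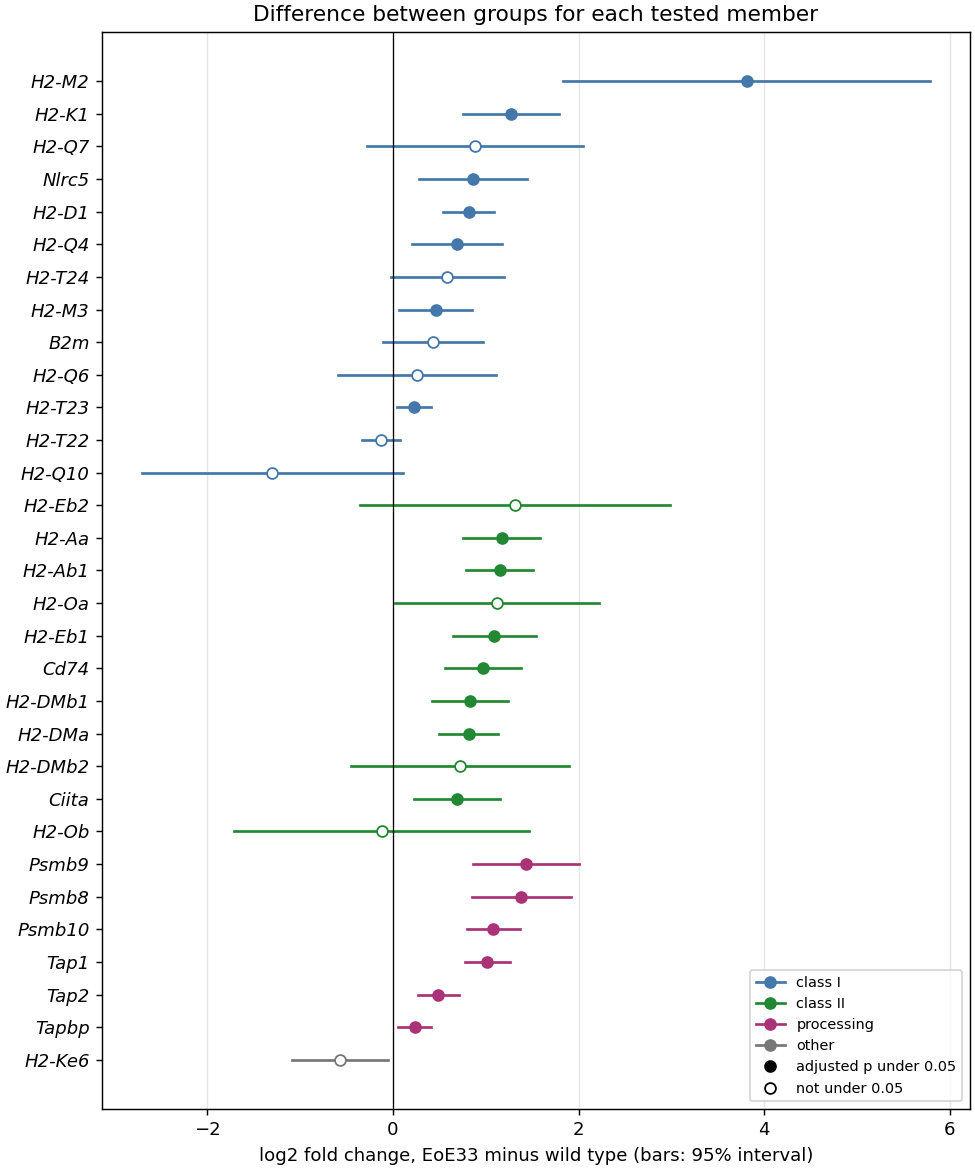
Log2 fold change (EoE33 minus wild type) of the tested members with 95% confidence intervals, filled where the adjusted p was under 0.05, grouped as class I, class II, processing and other; H2-M10.5, with 0 counts in EoE33 mice, is left out. All 6 processing genes lie to the right of 0, whereas class I members spread to both sides.

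The share of all counts that fell on class II members was 0.039% to 0.074% in wild type and 0.0869% to 0.112% in EoE33 libraries, so the groups did not overlap. For class I members it was 0.0704% to 0.124% and 0.152% to 0.189%, and for processing genes 0.0124% to 0.0176% and 0.0219% to 0.0236%. Per kilobase of exon, which allows levels to be compared between genes, B2m stood highest in both groups, at 225 CPM per kb in wild type and 304 CPM per kb in EoE33 mice. H2-D1 followed at 155 and 274 CPM per kb, then Cd74 at 130 and 256 CPM per kb, and H2-K1 at 70.9 and 172 CPM per kb. H2-Eb1 stood at 41.8 and 89.2 CPM per kb, H2-Ab1 at 33.1 and 73.4 CPM per kb, and H2-Aa at 22.9 and 51.7 CPM per kb. These lengths are unions of all annotated exons, which lowers the value of a gene with a long, rarely used exon.

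**Figure D2:**
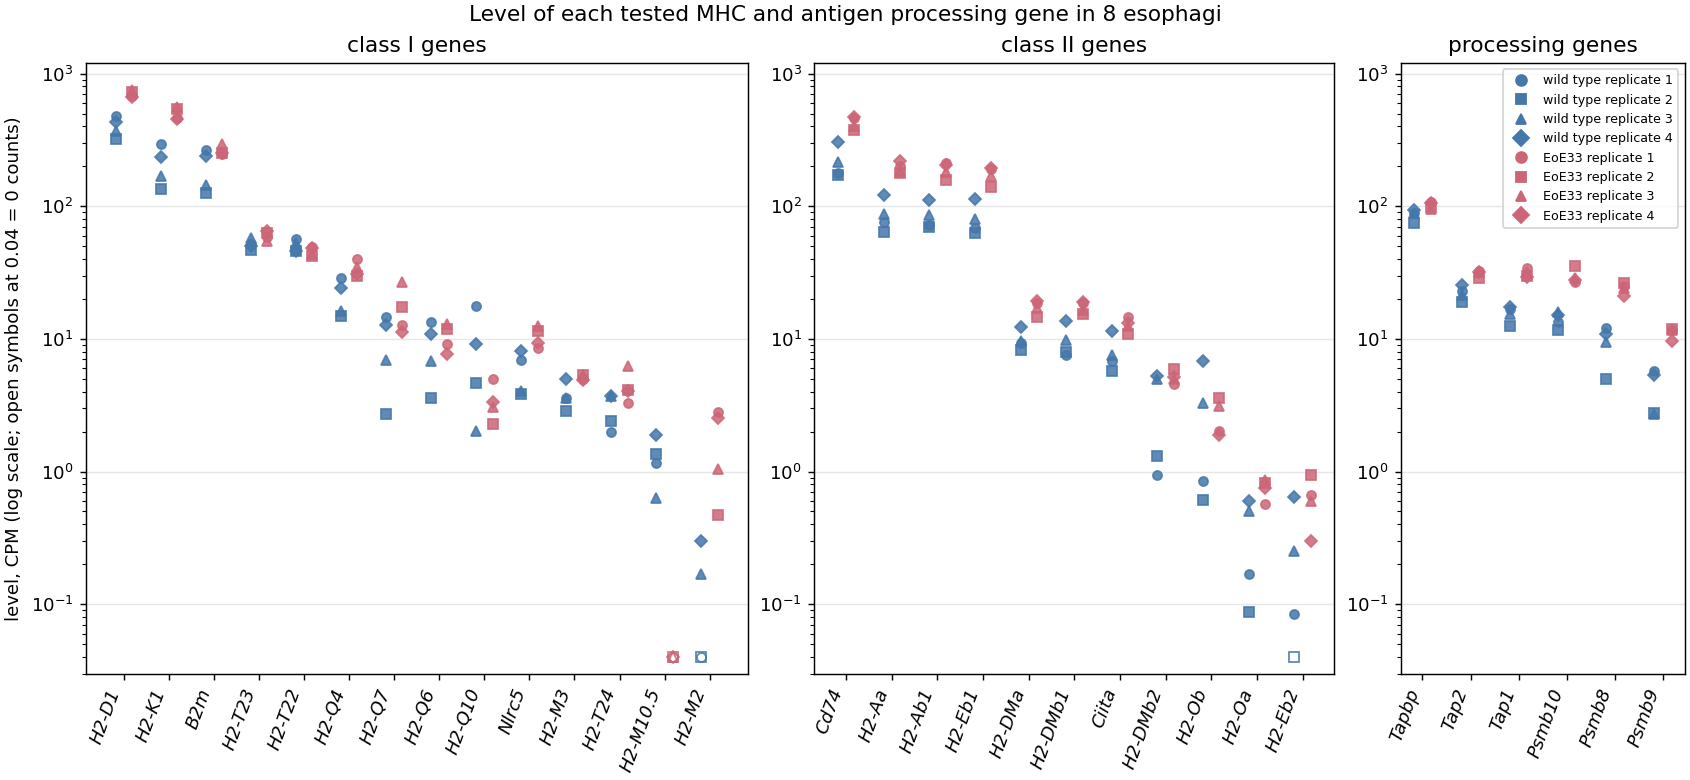
CPM of members in each library on a log axis, wild type in blue and EoE33 in red, with open symbols at 0.04 for 0 counts. H2-Ab1, H2-Aa, H2-Eb1 and Cd74 show EoE33 points above all wild type points, while H2-Ob and H2-Q10 show mixed points.

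Class II RNA rose at the peptide-presenting chains and the invariant chain. H2-Ab1, the beta chain of I-A, was 72.8, 69.9, 85.4 and 112 CPM in wild type replicates 1 to 4 and 212, 157, 181 and 204 CPM in the EoE33 replicates. The groups did not overlap, and H2-Ab1 rose 2.22-fold (log2 fold change 1.15, SE 0.16, adjusted p = 0.00024). H2-Aa, the I-A alpha chain, was 75.8, 64.3, 86.9 and 121 CPM in wild type and 201, 179, 185 and 220 CPM in EoE33 mice. It rose 2.25-fold (log2 fold change 1.17, SE 0.18, adjusted p = 0.000498), and wild type replicate 4 was again the highest of its group. H2-Eb1, the beta chain of I-E, was 68.1, 62.5, 80.5 and 114 CPM in wild type and 192, 139, 169 and 194 CPM in EoE33 mice, and rose 2.13-fold (adjusted p = 0.00119). The C57BL/6 strain is known to lack a working I-E alpha chain gene, so H2-Eb1 RNA there has no partner. Cd74 was 178, 173, 217 and 306 CPM in wild type and 463, 375, 406 and 474 CPM in EoE33 mice, and rose 1.96-fold (log2 fold change 0.98, SE 0.18, adjusted p = 0.00136). All 4 genes had their wild type order of libraries in common.

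The chains kept to nearly fixed proportions in every library. The count of H2-Aa per count of H2-Ab1 was 0.92 to 1.09 in wild type and 0.945 to 1.14 in EoE33 libraries, and that of H2-Eb1 was 0.893 to 1.02 and 0.887 to 0.95. Cd74 per H2-Ab1 was 2.45 to 2.74 in wild type and 2.18 to 2.4 in EoE33 mice, so the invariant chain was slightly lower against the I-A beta chain in every EoE33 library. These ratios were described and not tested.

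The H2-DM editor rose and the H2-O inhibitor was not called. H2-DMa was 9.29, 8.26, 9.69 and 12.2 CPM in wild type and 18.7, 14.5, 17 and 19.4 CPM in EoE33 mice, 1.76-fold higher (adjusted p = 0.000809), and 360 of its exon bases overlap Brd2 on the other strand, which stood at 180 and 204 CPM in these groups. H2-DMb1 was 7.55, 7.99, 9.86 and 13.7 CPM in wild type and 18.5, 15.4, 16.6 and 19 CPM in EoE33 mice, 1.78-fold higher (adjusted p = 0.00331). For both, the groups did not overlap. H2-DMb1 and H2-DMb2, a further H2-DM beta chain gene, share 5.7% and 5.4% of their 150-base exon windows with other genes. H2-DMb2 was 0.934, 1.32, 4.99 and 5.27 CPM in wild type and 4.58, 5.97, 4.96 and 5.14 CPM in EoE33 mice (log2 fold change 0.72, 95% interval -0.45 to 1.89, adjusted p = 0.248). Wild type replicates 3 and 4 reached the EoE33 level of H2-DMb2, and replicates 1 and 2 did not. H2-Ob, the beta chain of the inhibitor, was 0.849, 0.615, 3.26 and 6.77 CPM in wild type and 2.01, 3.57, 3.11 and 1.9 CPM in EoE33 mice (log2 fold change -0.12, 95% interval -1.71 to 1.46, adjusted p = 0.888). Its sign was not fixed: the log2 fold change was 0.73 without wild type replicate 4, 0.01 without EoE33 replicate 4, 0.44 with limma-voom and 0.33 with the replicate block. H2-Oa, the alpha chain, was 0.0878 to 0.6 CPM in wild type and 0.573 to 0.863 CPM in EoE33 mice (log2 fold change 1.12, adjusted p = 0.0689, and 0.0314 without wild type replicate 4). H2-Eb2, a little-expressed I-E beta relative, was 0 to 0.642 CPM in wild type and 0.3 to 0.936 CPM in EoE33 mice (log2 fold change 1.32, adjusted p = 0.147). Without wild type replicate 4 its log2 fold change was 2.39 (adjusted p = 0.0221).

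B cells are known to carry H2-O, and their markers varied with H2-Ob. The summed level of 8 B cell markers, mostly Ms4a1 and Cd79b, was 1.65, 1.01, 37.6 and 45.3 CPM in wild type and 17.6, 58.3, 33.8 and 9.84 CPM in EoE33 mice, and 0 of the 7 tested markers were called in edgeR's quasi-likelihood test, also 0 at an unadjusted p under 0.05, in DESeq2 and in limma-voom. The wild type libraries high in these markers, replicates 3 and 4, were those high in H2-Ob and H2-DMb2, and in EoE33 mice replicates 2 and 3 were higher than replicates 1 and 4 in the markers and in H2-Ob. The part of B cell RNA in these members was not tested.

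Ciita, the class II coactivator, was 6.83, 5.71, 7.62 and 11.4 CPM in wild type and 14.5, 10.8, 12.5 and 13.1 CPM in EoE33 mice. It rose 1.61-fold (log2 fold change 0.69, adjusted p = 0.0147), with wild type replicate 4 above EoE33 replicate 2, so the groups overlapped. The call ended without wild type replicates 1 and 3, the libraries with most liver and airway RNA (adjusted p = 0.123). H2-Ab1 per Ciita count was 9.8 to 12.2 in wild type and 14.5 to 15.5 in EoE33 libraries in this untested ratio, which did not overlap between groups. Dexi, which overlaps 3.5% of the exon bases of Ciita, stood at 42.9 and 24 CPM.

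Macrophage and monocyte markers were higher in EoE33 mice, as most class II genes were, and dendritic cell markers were mixed gene by gene. The summed level of 10 macrophage and monocyte markers was 207, 178, 279 and 293 CPM in wild type and 363, 420, 457 and 432 CPM in EoE33 mice, with 9 of 10 called higher and 0 lower (0 also at an unadjusted p under 0.05, in DESeq2 and in limma-voom). Its most abundant members were Csf1r, the receptor for macrophage colony-stimulating factor, at 69.4 and 99.7 CPM, and the complement gene C1qa at 50.8 and 84.7 CPM. The summed level of 10 dendritic cell markers was 18.2, 17.3, 22.8 and 35.7 CPM in wild type and 44, 42.7, 37.4 and 47.8 CPM in EoE33 mice. Of them, 4 were called higher, 1 lower and 5 not called, with a median log2 fold change of 0.95. Across all tested genes 31.3% were called higher and 32.1% lower. Itgax, the integrin CD11c, rose from 5.33 to 18.5 CPM (adjusted p = 0.000261), whereas Zbtb46, a transcription factor of classical dendritic cells, fell from 6.22 to 4.18 CPM (adjusted p = 0.0171). The fall of Zbtb46 was not called without wild type replicates 1 and 3, nor with library size without Chil4, and 0 of these markers were at 0 in all wild type libraries. The summed level of 6 T cell markers, mostly Cd4 and Cd3g, was 1.19 to 7.71 CPM in wild type and 6.67 to 9.58 CPM in EoE33 mice. In wild type, H2-Ab1 and the macrophage and monocyte sum had the same order of libraries. Within EoE33 mice they did not, as replicate 1 was highest in H2-Ab1 (212 CPM) and lowest in that sum (363 CPM). The part of macrophages, monocytes, dendritic cells and T cells in the class II result was not tested.

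**Figure D3:**
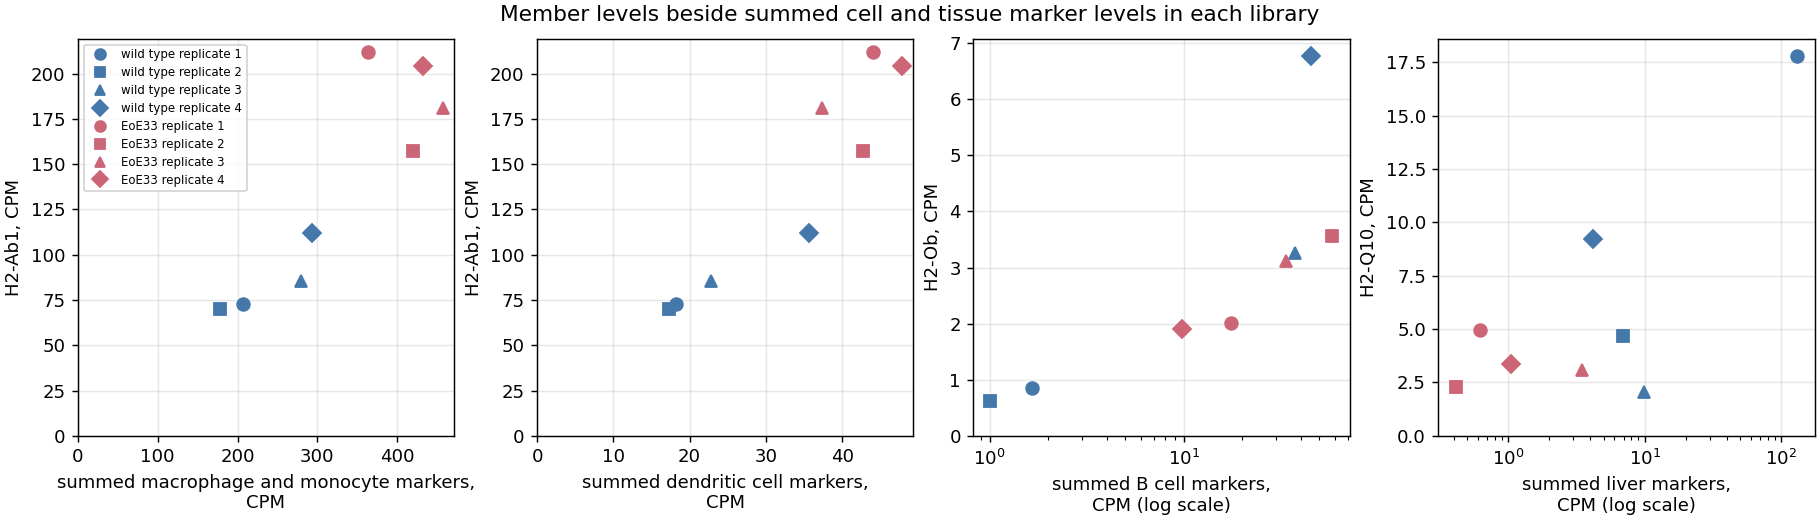
Members plotted against summed markers of other cell types, 1 point per library: H2-Ab1 against macrophage and against dendritic cell markers, H2-Ob against B cell markers and H2-Q10 against liver markers, all in CPM, with log axes for the B cell and liver markers. EoE33 points lie above and to the right of wild type points for H2-Ab1, and wild type replicate 1 stands apart at 132 CPM of liver markers.

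Classical class I heavy chains rose, and their light chain did not pass the test. H2-K1 (ENSMUSG00000061232, chr17:33996017-34000347 in GRCm38) was 294, 135, 169 and 237 CPM in wild type and 460, 543, 557 and 458 CPM in EoE33 mice. The groups did not overlap, and H2-K1 rose 2.42-fold (log2 fold change 1.27, SE 0.23, adjusted p = 0.00118). H2-D1, the other classical heavy chain of this strain, was 480, 322, 372 and 430 CPM in wild type and 678, 723, 758 and 664 CPM in EoE33 mice. It rose 1.76-fold (log2 fold change 0.82, SE 0.12, adjusted p = 0.000352). B2m was 266, 126, 144 and 240 CPM in wild type and 247, 251, 297 and 250 CPM in EoE33 mice (log2 fold change 0.43, 95% interval -0.10 to 0.97, adjusted p = 0.138). Wild type replicates 1 and 4 had B2m at the EoE33 level, and without replicate 1 the call was made (log2 fold change 0.62, adjusted p = 0.0392). The sum of H2-K1 and H2-D1 counts per B2m count was 2.78 to 3.76 in wild type and 4.43 to 5.05 in EoE33 libraries, and H2-K1 per H2-D1 was 0.418 to 0.612 and 0.677 to 0.751. Both untested ratios were higher in every EoE33 library than in any wild type library. Nlrc5 was 6.96, 3.82, 4.02 and 8.05 CPM in wild type and 8.5, 11.4, 12.5 and 9.34 CPM in EoE33 mice, without overlap. It rose 1.82-fold (adjusted p = 0.0154, and 0.0675 without wild type replicates 1 and 3).

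The Q, T and M genes next to the classical ones did not move as a block. H2-Q4 was 28.8, 14.9, 16.2 and 24.3 CPM in wild type and 39.9, 30, 35 and 31 CPM in EoE33 mice, 1.61-fold higher (adjusted p = 0.0187, and 0.0501 without EoE33 replicate 1). H2-Q6 and H2-Q7, of the Qa-2 family, overlapped between groups: H2-Q6 was 3.56 to 13.5 CPM in wild type and 7.64 to 12.9 CPM in EoE33 mice (adjusted p = 0.564), and H2-Q7 was 2.72 to 14.6 and 11.3 to 26.8 CPM (adjusted p = 0.156). They share 6% and 6.9% of their 150-base exon windows with other genes, so some reads may be split between relatives. H2-T23, which encodes Qa-1, a ligand of the inhibitory receptor NKG2A, was 46.9 to 57.4 CPM in wild type and 54.5 to 65.1 CPM in EoE33 mice. It was 1.17-fold higher (adjusted p = 0.0364), and the call ended without any of 6 libraries, wild type replicate 1 (adjusted p = 0.0786), 2 (0.0745) or 4 (0.0817) or EoE33 replicate 1 (0.0527), 2 (0.0681) or 4 (0.0876). H2-T22, a ligand of some gamma delta T cells, was 45.7 to 56.4 and 41.8 to 49 CPM (log2 fold change -0.13, 95% interval -0.33 to 0.07, adjusted p = 0.235). H2-T24 was 1.99 to 3.72 and 3.29 to 6.3 CPM (log2 fold change 0.59, adjusted p = 0.0838). H2-M3, which presents formylated peptides of bacteria and mitochondria, was 2.85 to 4.97 and 4.94 to 5.38 CPM, 1.38-fold higher (adjusted p = 0.0427). The H2-M3 call ended without any of 7 libraries, wild type replicate 1 (0.0984), 2 (0.0901) or 3 (0.087) or EoE33 replicate 1 (0.0659), 2 (0.0782), 3 (0.0774) or 4 (0.0632).

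H2-Q10, a secreted class I molecule known from mouse liver, was 17.8, 4.66, 2.03 and 9.21 CPM in wild type and 4.97, 2.28, 3.06 and 3.35 CPM in EoE33 mice. Its highest library, wild type replicate 1, was also the highest in Alb, at 91.3 CPM against 3.21 to 6.9 CPM in the other wild type libraries. Those others did not share this order. Replicate 4, next highest in H2-Q10 at 9.21 CPM, had the lowest wild type Alb, 3.21 CPM. Replicate 3, lowest in wild type H2-Q10 at 2.03 CPM, had 6.9 CPM of Alb. The groups overlapped (log2 fold change -1.30, adjusted p = 0.0954). Without wild type replicate 1 the log2 fold change was -0.63 (adjusted p = 0.29), and without wild type replicate 3 it was -1.63 (adjusted p = 0.0152). The part of liver RNA in H2-Q10 was not tested.

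A few H2-M genes had next to no counts in 1 group. H2-M2 and H2-M10.5 passed the filter on low counts only through the group in which they are high, so a large difference is built into their being tested. H2-M2 had 0, 0, 4 and 7 counts in wild type and 59, 8, 24 and 51 counts in EoE33 libraries, so the groups did not overlap. Its log2 fold change was 3.81 (SE 0.87, adjusted p = 0.00451) and rested on few wild type counts, being 4.78 without wild type replicate 4. H2-M5 did not pass the filter, and was 0.382, 0.264, 0.212 and 0.385 CPM in wild type and 5.3, 0.351, 1.29 and 4.39 CPM in EoE33 mice. Both genes were highest in EoE33 replicates 1 and 4 and lowest of the EoE33 group in replicate 2. With no filter on low counts H2-M5 had a log2 fold change of 3.20 (adjusted p = 0.0202). H2-M10.5 (ENSMUSG00000037246, chr17:36772910-36776234 in GRCm38), of a family known from vomeronasal neurons in the mouse, went the other way. It had 27, 31, 15 and 44 counts in wild type and 0 in each EoE33 library, at least 34-fold lower when the EoE33 group is set at a floor of 3 counts in all (adjusted p = 0.000416). None of its exon windows was shared with another gene, and no annotated gene overlaps its exons.

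The other members below the filter were H2-Q1, H2-Q2, H2-T3, H2-M1, H2-M9, H2-M11, H2-M10.1, H2-M10.2, H2-M10.3, H2-M10.4 and H2-M10.6. With H2-M5 they are 12 class I members, whose highest count in a library was 111, in H2-M5. H2-Q2 had 4 counts over the wild type and 38 over the EoE33 libraries (log2 fold change 3.33, adjusted p = 0.0019 with no filter). H2-Q1 had 29 and 9 counts (log2 fold change -1.42, adjusted p = 0.224 with no filter). H2-M9 had 20 and 6 counts (log2 fold change -1.40, adjusted p = 0.34 with no filter). Each of the other members below the filter had 2 counts or fewer in either group, and differences in them were not detectable at this depth. H2-Ke6 was 2.55 to 2.58 CPM in wild type and 1.23 to 2.29 CPM in EoE33 mice (log2 fold change -0.57, adjusted p = 0.0514, and 0.0244 without EoE33 replicate 3). The groups did not overlap, but 87.2% of its exon windows lie also in Gm20427, so its count is uncertain.

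Antigen processing rose at the proteasome and at the transporter, with the smallest fold change at tapasin. Psmb8, an inducible catalytic subunit of the immunoproteasome, was 12, 4.96, 9.52 and 10.8 CPM in wild type and 25.1, 26.6, 24.2 and 21 CPM in EoE33 mice, a 2.61-fold rise (log2 fold change 1.38, SE 0.23, adjusted p = 0.000865). Psmb9 was 5.69, 2.77, 2.71 and 5.31 CPM in wild type and 11.6, 11.8, 11.7 and 9.64 CPM in EoE33 mice, a 2.71-fold rise (adjusted p = 0.000945). Psmb10 was 13.5, 11.6, 16 and 15.2 CPM in wild type and 26.9, 35.5, 29 and 27.9 CPM in EoE33 mice, a 2.12-fold rise (adjusted p = 7.3e-05). The groups did not overlap for any of these 3 subunits. Tap1 was 16.8, 12.5, 15.4 and 17.3 CPM in wild type and 34, 29.9, 32.2 and 29.4 CPM in EoE33 mice, a 2.03-fold rise (adjusted p = 4.5e-05). Tap2 was 22.8, 18.9, 21.6 and 25.7 CPM in wild type and 32.3, 28.8, 32.1 and 31.8 CPM in EoE33 mice, a 1.40-fold rise (adjusted p = 0.00178). Tap1 counts per Tap2 count were 0.66 to 0.739 in wild type and 0.925 to 1.05 in EoE33 libraries, so the chains of the transporter did not rise by the same factor in this untested ratio. Tapbp was 88.3, 74.9, 89.6 and 92.9 CPM in wild type and 107, 98, 96.1 and 106 CPM in EoE33 mice, 1.18-fold higher (adjusted p = 0.0257). Its groups did not overlap, but the call ended without wild type replicate 1 (0.0539), EoE33 replicate 1 (0.0619) or EoE33 replicate 4 (0.0585), and without wild type replicates 1 and 3 (0.0784). Psmb9 and Tap1 lie head to head on chr17 and share 212 exon bases on opposite strands.

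The inducible subunits rose against the constitutive subunits they replace. Psmb8 counts per Psmb5 count were 0.136, 0.0555, 0.104 and 0.141 in wild type and 0.276, 0.307, 0.254 and 0.23 in EoE33 libraries, a 2.58-fold difference. Psmb9 per Psmb6 was 0.0604, 0.0306, 0.0283 and 0.0606 in wild type and 0.111, 0.116, 0.116 and 0.1 in EoE33 libraries, a 2.62-fold difference. Psmb10 per Psmb7 was 0.135, 0.119, 0.166 and 0.169 in wild type and 0.3, 0.398, 0.316 and 0.327 in EoE33 libraries, a 2.29-fold difference. Every EoE33 ratio lay above every wild type ratio, and a two-sided exact permutation test gave p = 0.0286 for each, the smallest that 70 orderings allow (0.0286 after adjustment over 3 ratios). The constitutive subunits were not called: Psmb5 had a log2 fold change of 0.08 (adjusted p = 0.348), Psmb6 of 0.12 (adjusted p = 0.0765) and Psmb7 of -0.11 (adjusted p = 0.109). They stood at 86.3, 92.5 and 96.1 CPM in wild type and 91.2, 101 and 89 CPM in EoE33 mice.

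**Figure D4:**
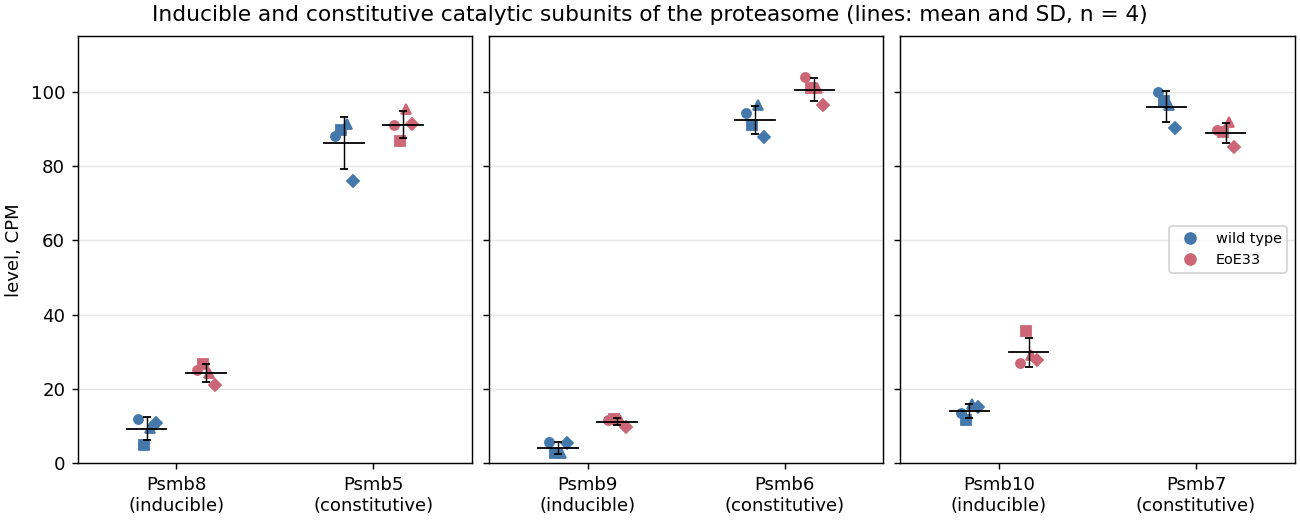
CPM of each inducible proteasome subunit and of the constitutive subunit it replaces, 1 point per library, with mean and SD (n = 4 per group). EoE33 points of Psmb8, Psmb9 and Psmb10 lie above all wild type points, while those of Psmb5, Psmb6 and Psmb7 lie near or among the wild type points.

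The genes of the pathway lists that follow are to be read against the 31.3% of all tested genes called higher and the 32.1% called lower. Of 13 other genes of class I peptide supply and loading, 9 were higher and 0 lower (0 also at an unadjusted p under 0.05, in DESeq2 and in limma-voom), with a median log2 fold change of 0.84. The 4 not called were Psmb5, Psmb6 and Psmb7, given above, and the proteasome assembly factor Pomp. Pdia3 and Calr, chaperones of the loading complex that also fold other glycoproteins, rose from 346 to 991 CPM (adjusted p = 1.25e-06) and from 467 to 1271 CPM (adjusted p = 1.56e-06). Psme1, a subunit of the proteasome activator PA28, rose from 36.5 to 70.3 CPM (adjusted p = 4.35e-06). Tapbpl, the peptide editor related to tapasin, rose from 11.3 to 22.7 CPM (adjusted p = 8.98e-06).

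Of 8 further genes of class II processing and turnover, 6 were higher and 1 lower, with a median log2 fold change of 0.63. Ctss, the protease that removes the invariant chain in antigen-presenting cells, rose from 32.3 ± 7.61 to 111 ± 5.52 CPM (3.44-fold, adjusted p = 1.35e-05). Ctsl, which does so in thymic epithelium and is broadly expressed, rose from 177 to 324 CPM (adjusted p = 3.99e-05), and the lysosomal thiol reductase Ifi30 from 35.2 to 57.7 CPM (adjusted p = 0.000126). March8, a ubiquitin ligase that removes class II from the surface, fell from 120 ± 12.8 to 62.9 ± 13.3 CPM (log2 fold change -0.93, adjusted p = 0.000543). March1, the other March gene of this list, went the other way at a lower level. It rose from 3.8 to 7.08 CPM (log2 fold change 0.90, adjusted p = 0.0128), with overlapping groups.

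The promoter factors and the interferon-gamma pathway were mostly higher, with 14 of 18 listed genes called higher, 0 lower and a median log2 fold change of 0.39 over the 17 tested. At an unadjusted p under 0.05, in DESeq2 and in limma-voom 0 were lower as well. Socs1, a feedback inhibitor of cytokine signalling, rose from 1.99 to 15.9 CPM (7.97-fold, adjusted p = 1.62e-06). Irf1, which binds the interferon-responsive elements of class I promoters, rose from 16.8 to 51.3 CPM (adjusted p = 1.46e-05), and Spi1, a myeloid transcription factor, from 6.81 to 20.4 CPM (adjusted p = 5.66e-05). Ifngr2, a chain of the interferon-gamma receptor, rose from 42 to 84 CPM (adjusted p = 5.79e-05). Ifng itself had too few counts for a test, 3 in wild type and 2 in EoE33 mice.

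Genes known to be induced by interferon-gamma outside the MHC were seldom called higher. Of 14 listed genes, 1 was higher, 6 were lower and 6 were not called, with a median log2 fold change of -0.36 over the 13 tested. Irgm2, an immunity-related GTPase, fell from 15 to 10 CPM (log2 fold change -0.58, adjusted p = 0.000911), Igtp from 8.35 to 5.89 CPM (adjusted p = 0.00271) and the guanylate-binding protein Gbp6 from 3.27 to 1.23 CPM (adjusted p = 0.00271). Irgm1 was the member that rose, from 15.8 to 21.3 CPM (adjusted p = 0.00126). Iigp1, Gbp3 and the chemokine Cxcl9 were the other falls.

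Of 14 MHC class I-like genes outside the H2 symbols, 10 were tested, 5 were higher and 3 lower, which against 31.3% and 32.1% of all tested genes says nothing particular about the list. Mr1, which shows vitamin metabolites to MAIT cells, fell from 21.4 to 9.1 CPM (log2 fold change -1.23, adjusted p = 3e-05). Fcgrt, the neonatal Fc receptor, fell from 65.7 to 42.4 CPM (adjusted p = 0.000377), and Mill2 from 8.67 to 3.73 CPM (adjusted p = 0.000447). Procr, the endothelial protein C receptor, rose from 18.5 to 46.6 CPM (adjusted p = 0.000114). Mill1, a relative of Mill2, had 2 counts over the wild type and 379 over the EoE33 libraries, a ratio of 218 with a 95% counting interval of 59.8 to 1800. Mill1 is among the 5 higher, but it passed the filter on low counts only through the EoE33 group. A large rise is thus built into its being tested.

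**Figure D5:**
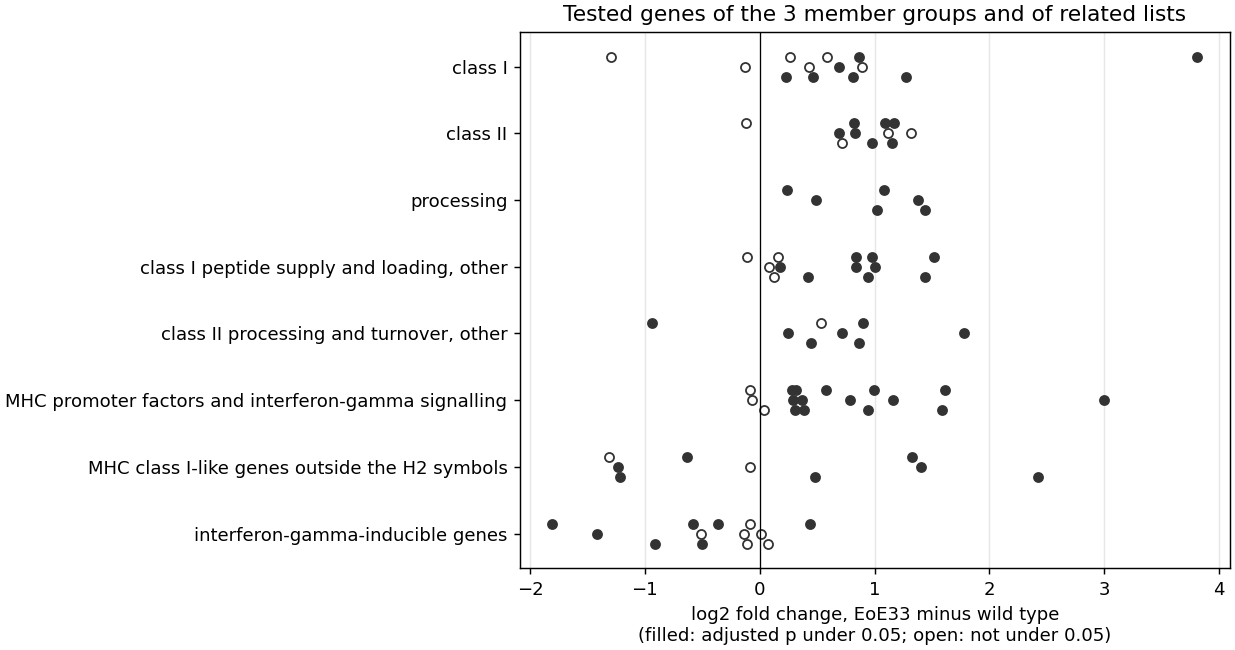
Log2 fold changes (EoE33 minus wild type) of the tested genes of the 3 member groups and of 5 pathway lists, 1 point per gene, filled where the adjusted p was under 0.05; H2-M10.5 and Mill1 are left out because a group of theirs holds 2 counts or fewer. Processing genes all lie above 0, and interferon-gamma-inducible genes lie mostly below.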

How the data were processed

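RNA of 8 whole esophagi was analysed, 4 per genotype. The authors deposited raw read counts per gene and library in a table of 49315 gene identifiers, whose columns were assigned to samples by the column letter in each description. Trimmomatic 0.36, STAR 2.5.2b, featureCounts, Subread 1.5.2 and the build GRCm38 come from the submitters' processing notes. Which annotation was counted, whether strand was used and how multi-mapped reads were handled is not given in the sources used here, so reads of overlapping genes may not be separable. GENCODE M21 gave symbols and coordinates for 49056 identifiers.

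Genes were filtered with filterByExpr, scaled by TMM and tested with edgeR 4.0.16 in R 4.3.3 (glmQLFit with robust = TRUE, glmQLFTest, genotype as the model term). P-values were adjusted by Benjamini-Hochberg over all 16760 tested genes, with 0.05 as the threshold. CPM used TMM-scaled library sizes, and values in the text are means ± SD of 4 libraries or single libraries. The labels do not name batches. Replicates were separate mice per the labels, and within groups every pair of libraries differed beyond sampling noise (chi-square divided by its degrees of freedom 10.38 to 70.1). Floors of 3 counts and 95% intervals of count ratios cover counting error only. Proteasome ratios used counts plus 0.5. Exon sharing was the share of 150-base windows of a member's transcripts found in other genes. The promoter of Cd74 was not among those searched for motifs. The procedure was tested on simulated counts.

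Members and lists were chosen with earlier results of these data known. Every tested member is named, and of each pathway list up to 4 genes with the smallest p and those called against its direction; genes named beyond this were chosen after their values were seen. Alternatives were DESeq2 1.42.0 and its size factors, upper-quartile and library-size scaling, limma-voom (limma 3.58.1), no filter on low counts, at least 1 CPM in 4 libraries, the replicate number as a block, and leaving out each library. Leaving out wild type replicates 1 and 3 together, and library size without Chil4, were added after seeing the data. In all, 11 H2- symbols that are not protein-coding were left out of the members. The result of 1 gene of the pathway lists is not reported here.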

Additional observations from a re-analysis of the deposited data

Results flagged for a closer look

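In 3 of 70 groups of 4 libraries, a library's gap to the nearest other passed Dixon's 95% critical value for 4 samples. Chance flags about 1 in 20 such groups. B2m was 297 CPM in EoE33 replicate 3 and 247 to 251 CPM in the other EoE33 libraries. Psmb9 was 9.64 CPM in EoE33 replicate 4 and 11.6 to 11.8 CPM in the others. Tap2 was 28.8 CPM in EoE33 replicate 2 and 31.8 to 32.3 CPM in the others. These libraries differ from gene to gene.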

How the results depend on the processing

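Over 18 alternatives, the class II members called higher numbered 6 to 9 and the processing genes 5 to 6, and 0 of either were called lower. Class I members called higher numbered 4 to 8 when a library was left out, and those called lower 1 to 2. The class I count of lower members was 1 as reported. With H2-Q10 added, it was 2 in DESeq2's Wald test, without wild type replicate 3, and without wild type replicates 1 and 3 together. It was 0 with at least 1 CPM in 4 libraries, where H2-M10.5 was not tested. H2-Ob turned positive with limma-voom (log2 fold change 0.44) and with the replicate block (0.33), and ranged from -0.44 to 0.73 when a library was left out. Interferon-gamma-inducible genes called higher were 2 with no low-count filter, and dendritic cell markers called lower were 0 without wild type replicates 1 and 3 and 0 with library size without Chil4. That last scaling moved the median of all genes by 0.10 on the log2 scale. Same-numbered replicates did not deviate together (correlations 0.10, -0.12, 0.06 and -0.14). With the replicate block, the calls of H2-T23 (adjusted p = 0.0886) and H2-M3 (0.0664) ended and H2-T24 was called (0.0307). The proteasome log2 ratios in the replicate block were 1.37, 1.39 and 1.19 for Psmb8, Psmb9 and Psmb10, each with p = 0.125, the smallest that an exact sign-flip test of 4 pairs allows. Tapbp was not called with library size only (0.0568). Adjusted p over the alternatives ranged from 0.0041 to 0.0886 for H2-T23, 0.00637 to 0.216 for H2-M3, 0.00636 to 0.0784 for Tapbp, 0.002 to 0.0501 for H2-Q4, 0.0392 to 0.288 for B2m, 0.0152 to 0.29 for H2-Q10, 0.0314 to 0.178 for H2-Oa, 0.0221 to 0.451 for H2-Eb2 and 0.0244 to 0.164 for H2-Ke6. Of the members' fold changes under all alternatives, 529 kept direction and side of the threshold, 27 lost and 12 gained the call, and 4 changed sign, all of H2-Ob. The cause of these changes was not tested. Depth limits statements on members with few counts.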

Other observations

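Symbols that start with H2- but are annotated as pseudogenes were read as well. H2-K2 was 2.97, 2.59, 3.38 and 4.28 CPM in wild type and 5.68, 6.73, 5.13 and 5.39 CPM in EoE33 mice (adjusted p = 0.00404 in edgeR's quasi-likelihood test). H2-T10 was 1.27 to 1.63 CPM in wild type and 1.64 to 3.5 CPM in EoE33 mice (adjusted p = 0.0356). H2-Q5 was 0.264 to 3.44 CPM and 2.4 to 3.41 CPM (adjusted p = 0.417). H2-Ea-ps, the I-E alpha gene of this annotation, had 0 counts in all 8 libraries.

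Of 20 tested class I and processing members, 12 shared an order among the wild type libraries, which was noticed after the values were seen. H2-K1, H2-D1, H2-Q4, H2-Q6, H2-Q7, H2-Q10, B2m, Nlrc5, Psmb8, Psmb9, Tap1 and Tap2 were each higher in wild type replicates 1 and 4 than in replicates 2 and 3. The other 8, H2-T22, H2-T23, H2-T24, H2-M2, H2-M3, H2-M10.5, Psmb10 and Tapbp, did not have this order. H2-Ab1, H2-Aa, H2-Eb1 and Cd74 were each highest in wild type replicate 4 and next highest in replicate 3. The reason was not tested.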
